A study of Mus musculus with 12 samples.

Results

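Insulin-like growth factor 1 (*Igf1*), its receptors *Igf1r* and *Igf2r*, and the IGF binding protein genes *Igfbp2*, *Igfbp3*, *Igfbp4*, *Igfbp5*, *Igfbp6* and *Igfbp7* were followed in cultured fibroblasts of the adventitia, the outermost coat of the aorta, where they make and maintain the matrix. These 9 genes were chosen by name, with earlier results of these data known, from the 54352 gene symbols counted. Primary cultures came from the ascending aorta (root included) or from the descending thoracic aorta of male WT mice of strain C57Bl/6, and the groups differed only in vascular site and treatment. Cells were kept in DMEM with 5% FBS and received TGFβ at 10 ng/mL or solute control for 48 h, and each of the 4 groups held 3 libraries of bulk RNA. The sample labels give an age of 14 weeks and 1 passage, the results text 14 weeks and 3 passages, and the methods 12 weeks, 6 mice and 1 passage. Nothing states which cultures shared an animal, so that p-values measure the spread between these samples, which may be technical. The comparisons ask how TGFβ changed these transcripts at each vascular site, how the sites differed with and without TGFβ, and whether the change differed between sites.

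IGF1 is a secreted growth factor that signals through the receptor tyrosine kinase IGF1R to the PI3K-AKT-mTOR and MAPK pathways, and in the vessel wall it is known for its effects on growth, survival and matrix production. IGF2R, the cation-independent mannose 6-phosphate receptor, takes up IGF2 for degradation and sorts lysosomal enzymes, and it can also take part in the activation of latent TGFβ. The IGF binding proteins hold IGFs outside the cell, either keeping them from the receptor or delivering them to it, and are themselves cut by proteases of the pappalysin family and others.

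Libraries held 16250126 to 23892943 counts. A level is given as normalized CPM, a count relative to the library total after TMM scaling over the 12 libraries, and replicates are listed in the order 1, 2, 3. A count of 3, taken as the floor of a library, lay at 0.117 to 0.207 normalized CPM, and such floors cover counting error only. A change was called where the Benjamini-Hochberg adjusted p of edgeR's two-sided quasi-likelihood test, over all genes tested, was under 0.05. The libraries of descending control replicate 3 and ascending control replicate 2 stood apart. In the first, 13031 genes had a count, against 19337 to 20931 in the other 11 libraries, and 11.02% of counts were mitochondrial, against 0.703 to 1.03%. In ascending control replicate 2, each of 6 macrophage markers was higher than in any of the other libraries, and their sum was 357 normalized CPM, against 54.4 and 57.7 in the other ascending controls and 14.0 to 47.2 elsewhere. In the same library the fibroblast marker *Lum* was at 39.7, against 5.69 and 7.79 in the other ascending controls, and the sum of 3 adipocyte markers at 4.94, against 0.912 and 1.17. Calls of the 9 genes that changed without either library are given both ways. The sum of 8 fibroblast markers, most of it *Col1a1* and *Col1a2*, ranged from 14317 to 26183 normalized CPM. Of 6 endothelial markers *Tie1* was at 0 in all 12 libraries, whereas *Tek* was at 23.5 to 25.7 in the controls of both sites. *Pecam1*, *Cdh5*, *Kdr* and *Vwf* reached at most 0.300, 0.260, 1.61 and 1.05 normalized CPM in any library. As a check of the treatment, *Ctgf*, a matricellular gene known to respond to TGFβ, rose with TGFβ by 1.65 on the log2 scale in ascending and by 2.14 in descending fibroblasts (edgeR, adjusted p = 1.00e-16 and 0.00156). In bulk RNA, fewer cells of a type and less RNA per cell cannot be told apart.

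The promoter windows of the 5 members called for TGFβ at both vascular sites are shown here because the results turn on these genes. Each runs from 250 bases before to 50 bases after the RefSeq start (GRCm38.p6), 5′ to 3′ on the strand of the gene. Capitals mark matches, on either strand, to CAGAC (the core of the SMAD binding element), TGANTCA (the AP-1 site), GGGCGG (the GC box) and TATAAA (the TATA box). No match of a motif overlapped a match of another in these windows. They lie at chr10:87860861-87861160 (*Igf1*, plus strand), chr1:72824230-72824529 (*Igfbp2*, plus), chr11:7213874-7214173 (*Igfbp3*, minus), chr11:99040994-99041293 (*Igfbp4*, plus) and chr15:102143936-102144235 (*Igfbp6*, plus).
Igf1: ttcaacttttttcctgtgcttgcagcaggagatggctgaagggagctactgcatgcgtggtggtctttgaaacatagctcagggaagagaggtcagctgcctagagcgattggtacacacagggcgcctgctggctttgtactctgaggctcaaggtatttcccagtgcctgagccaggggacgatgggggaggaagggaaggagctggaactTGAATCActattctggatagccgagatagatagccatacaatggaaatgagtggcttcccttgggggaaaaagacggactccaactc
Igfbp2: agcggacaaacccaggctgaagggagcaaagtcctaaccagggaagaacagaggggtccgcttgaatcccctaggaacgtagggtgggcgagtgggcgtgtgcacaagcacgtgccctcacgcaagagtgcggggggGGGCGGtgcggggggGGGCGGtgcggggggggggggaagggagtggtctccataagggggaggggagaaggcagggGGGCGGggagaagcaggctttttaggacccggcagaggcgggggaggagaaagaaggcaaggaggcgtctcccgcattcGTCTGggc
Igfbp3: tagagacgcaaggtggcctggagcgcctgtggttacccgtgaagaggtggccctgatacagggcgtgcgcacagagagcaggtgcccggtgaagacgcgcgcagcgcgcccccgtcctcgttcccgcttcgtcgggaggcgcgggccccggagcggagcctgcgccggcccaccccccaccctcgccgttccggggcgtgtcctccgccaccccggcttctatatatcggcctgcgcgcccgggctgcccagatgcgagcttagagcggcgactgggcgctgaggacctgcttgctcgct
Igfbp4: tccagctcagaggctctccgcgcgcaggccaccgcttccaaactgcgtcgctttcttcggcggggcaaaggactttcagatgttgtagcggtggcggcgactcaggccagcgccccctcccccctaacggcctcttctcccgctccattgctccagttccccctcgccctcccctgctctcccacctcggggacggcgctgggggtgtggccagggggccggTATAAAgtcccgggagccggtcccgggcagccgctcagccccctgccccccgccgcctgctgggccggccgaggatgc
Igfbp6: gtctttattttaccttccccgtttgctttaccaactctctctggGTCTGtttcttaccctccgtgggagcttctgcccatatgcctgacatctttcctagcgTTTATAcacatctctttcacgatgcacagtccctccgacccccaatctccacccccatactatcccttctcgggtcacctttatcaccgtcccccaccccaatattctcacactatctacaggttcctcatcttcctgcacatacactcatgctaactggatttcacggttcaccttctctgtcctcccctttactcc

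The *Igf1* window held TGAATCA at position -37 from the start, whose middle A is not part of the AP-1 site TGA(C/G)TCA. It held no match to the other 3 motifs. Its RefSeq start lies 2846 bases downstream of the gene start of GENCODE vM21, those of *Igfbp6* and *Igfbp2* lie 176 and 23 bases upstream of theirs, and those of *Igfbp3* and *Igfbp4* coincide with theirs. RefSeq lists 2 windows for *Igfbp2*, of which the one nearest to the GENCODE start is shown. *Igfbp2* held 3 GC boxes and, at position 42, the reverse complement of CAGAC. The TATA box letters stood at position -28 of *Igfbp4* and, on the other strand, at -148 of *Igfbp6*, which also held the reverse complement of CAGAC at -206. None of the 4 motifs was found in the *Igfbp3* window. Of 32851 RefSeq windows of the same length, 49.6% held CAGAC, 7.81% TGANTCA, 35.7% GGGCGG and 13.6% TATAAA. These matches are descriptions of the letters, and binding was not measured in these cultures.

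With TGFβ, *Igf1* and *Igfbp2* rose and *Igfbp3*, *Igfbp4* and *Igfbp6* fell at both vascular sites. In ascending fibroblasts 8 of the 9 genes were called, 4 higher and 4 lower, where 55.8% of all 13917 genes tested were called (28.2% higher, 27.6% lower). In descending fibroblasts 5 were called, 2 higher and 3 lower, against 8.07% of 13825 genes tested (3.59% higher, 4.48% lower). Without descending control replicate 3, 8 of the 9 were called, 5 higher and 3 lower, against 52.9% of genes (26.6% higher, 26.3% lower). The share called in ascending fibroblasts and in this reduced set is thus to be read against a background above 50%. The median log2 fold change of the 9 genes was -0.14 in ascending and 0.27 in descending fibroblasts, beside -0.0044 and 0.021 over all genes tested. The ascending median is the value of *Igfbp5*, and without ascending control replicate 2 the median was 0.25, the value of *Igfbp7*, beside -0.0029 over all genes tested. Of the 8 fibroblast markers, *Col3a1*, *Dcn*, *Lum*, *Pdgfra* and *Thy1* fell with TGFβ in ascending fibroblasts and *Col1a1*, *Col1a2* and *Pdgfrb* rose. In descending fibroblasts 3 fell and 2 rose (5 and 3 without control replicate 3). Markers of other cell types moved along with the treatment. All 6 macrophage markers fell with TGFβ in ascending fibroblasts, where their sum was 54.4, 357 and 57.7 normalized CPM in controls and 29.6 to 42.3 after treatment. Without ascending control replicate 2, a fit added after seeing the data, 5 of the 6 fell, and *Ptprc* did not pass (log2 fold change -0.19, edgeR adjusted p = 0.730). In descending fibroblasts 0 of 5 passed by edgeR (2 at an unadjusted p under 0.05), and 3 of 6 fell without control replicate 3. The sum of 6 endothelial markers, most of it *Tek*, was 24.4 to 27.9 in ascending controls and 4.70 to 5.72 with TGFβ, and 23.9 to 26.8 and 9.49 to 11.2 in descending fibroblasts. Of the 2 endothelial markers tested at each site, *Tek* fell at both and *Kdr* did not pass, but *Kdr* rose in descending fibroblasts without control replicate 3 (log2 fold change 1.02). With all libraries *Pecam1*, *Cdh5*, *Tie1* and *Vwf* were too low to be tested at either site, so that the fall of the sum is mostly that of *Tek*. The sum of 6 smooth muscle markers was 139 to 152 in ascending controls and 182 to 194 with TGFβ, and 196 to 246 and 318 to 343 in descending fibroblasts. Of these, 3 rose (*Cnn1*, *Smtn* and *Lmod1*) and 2 fell (*Myh11* and *Des*) of 5 tested in ascending fibroblasts, and 1 of 6 rose in descending fibroblasts (4 rose and 1 fell without control replicate 3). In ascending fibroblasts the mesothelial sum was 32.9 to 42.7 in controls and 19.6 to 26.5 with TGFβ, with 1 of 3 markers lower (2 without control replicate 2), and the Schwann cell sum was 21.4 to 25.9 and 14.9 to 15.7, with 1 of 3 lower. In descending fibroblasts without control replicate 3, 2 of 3 adipocyte markers and 1 of 2 Schwann cell markers were lower. Their part in the results was not tested.

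**Figure D1:**
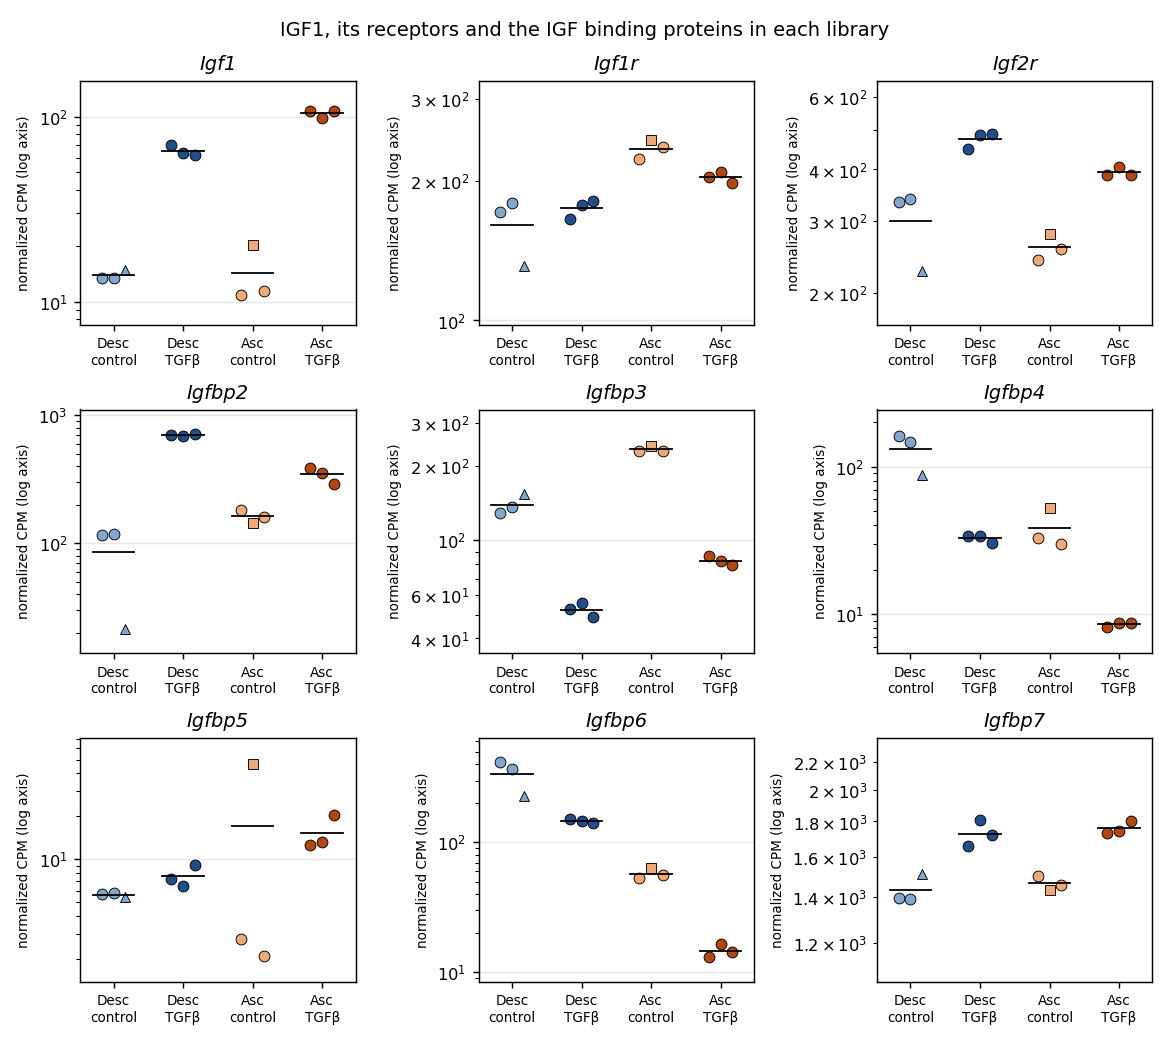
Normalized CPM of the 9 genes in each of the 12 libraries (log axis), by vascular site (Desc, Asc) and treatment. Each point is 1 library, lines are group means, the triangle is descending control replicate 3 and the square ascending control replicate 2. *Igf1* lies at 61.95 or above in every TGFβ library and at 20.3 or below in every control.

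The ligand *Igf1* (chr10:87858265-87937042) was low in control cultures, at 10.9, 20.3 and 11.3 normalized CPM in ascending and 13.4, 13.4 and 14.8 in descending fibroblasts. With TGFβ it reached 107, 98.7 and 107 in ascending and 69.9, 63.8 and 61.95 in descending fibroblasts. TGFβ and control libraries did not overlap at either vascular site, and among treated cultures every ascending library lay above every descending one. The rise was 7.37-fold in ascending (log2 fold change 2.88, SE 0.13, edgeR adjusted p = 1.25e-11) and 4.69-fold in descending fibroblasts (2.23, SE 0.13, adjusted p = 0.00112). Ascending control replicate 2 was the highest control, and without it the rise in ascending fibroblasts was 9.33-fold (log2 fold change 3.22, SE 0.07). The other ligand of the receptor, *Igf2*, had 0 to 4 counts per library, and *Ins1* and *Ins2* had at most 1 count, so that these transcripts were not detectable or near the floor at this depth.

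The signalling receptor *Igf1r* (chr7:67952827-68233668) changed little. It stood at 222, 244 and 237 normalized CPM in ascending controls and at 203, 208 and 198 with TGFβ, and all 3 treated libraries lay below the controls. The fall was 1.16-fold (log2 fold change -0.21, SE 0.04, edgeR adjusted p = 0.000195). In descending fibroblasts it stood at 171, 179 and 131 in controls and 165, 177 and 181 with TGFβ, ranges that overlapped. The log2 fold change there was 0.11 (95% interval -0.25 to 0.48, adjusted p = 0.695) and, without descending control replicate 3, -0.0027 (-0.11 to 0.10, adjusted p = 0.970).

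The clearance receptor *Igf2r* (chr17:12682406-12769664) was at 240.05, 278 and 256 normalized CPM in ascending controls and at 388, 406 and 387 with TGFβ. In descending fibroblasts it was at 332, 339 and 225 in controls and at 449, 486 and 487 with TGFβ. Every treated library lay above every control of its site, and descending control replicate 3 was the lowest of the 12. The rise was 1.52-fold in ascending fibroblasts (log2 fold change 0.61, SE 0.04, edgeR adjusted p = 3.85e-09). In descending fibroblasts the log2 fold change was 0.66 (SE 0.18, adjusted p = 0.0882) and did not pass the test with all 3 controls, while without descending control replicate 3 it was 0.50 (SE 0.05, adjusted p = 9.78e-10). The antisense gene *Airn*, which starts inside *Igf2r* but shares none of its exons, stayed at a group mean of 1.41 to 2.30 normalized CPM and was not called in either TGFβ comparison.

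*Igfbp3* (chr11:7206086-7213923), which encodes the main carrier of circulating IGFs, fell at both vascular sites. Its level was 230.2, 241 and 229.9 normalized CPM in ascending controls and 86.0, 82.8 and 79.7 with TGFβ. The descending values were 129, 136 and 154 in controls and 52.7, 55.5 and 49.1 with TGFβ. No control overlapped a treated library, and at either treatment every ascending library was above every descending one. *Igfbp3* fell 2.83-fold in ascending (log2 fold change -1.50, SE 0.04, edgeR adjusted p = 7.60e-15) and 2.68-fold in descending fibroblasts (-1.42, SE 0.13, adjusted p = 0.00348).

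*Igfbp4* (chr11:99041244-99054392), which encodes an inhibitory binding protein cut by the protease PAPP-A, was at 32.8, 52.4 and 29.8 normalized CPM in ascending controls and at 8.20, 8.75 and 8.72 with TGFβ. In descending fibroblasts it was at 162, 146 and 88.2 in controls and at 34.0, 33.7 and 30.5 with TGFβ. The 3 treated descending libraries lay within the range of untreated ascending ones. *Igfbp4* fell 4.48-fold in ascending (log2 fold change -2.16, SE 0.17, edgeR adjusted p = 1.16e-08) and 4.05-fold in descending fibroblasts (-2.02, SE 0.25, adjusted p = 0.00805). A share of 1.72% of its 50-base exon windows, taken at every base, is also found in other genes, mostly in *Echs1*.

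*Igfbp6* (chr15:102144362-102149511), which encodes a binding protein with a preference for IGF2, was at 53.0, 63.6 and 55.7 normalized CPM in ascending controls and at 13.1, 16.4 and 14.4 with TGFβ. In descending fibroblasts it was at 413, 365 and 227 in controls and at 151, 147 and 140.1 with TGFβ. All descending libraries, treated or not, lay above all ascending ones. The fall was 3.94-fold in ascending (log2 fold change -1.98, SE 0.08, edgeR adjusted p = 2.70e-12) and 2.31-fold in descending fibroblasts (-1.21, SE 0.23, adjusted p = 0.0320), and 2.66-fold in the latter without control replicate 3 (-1.41, SE 0.05).

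*Igfbp2* (chr1:72824503-72852474), which encodes a secreted binding protein with a preference for IGF2, rose with TGFβ. It was at 183, 143 and 160.01 normalized CPM in ascending controls and at 390.3, 354 and 293 with TGFβ. In descending fibroblasts it was at 115, 118 and 21.4 in controls and at 696, 695 and 717 with TGFβ. Descending control replicate 3 held less than any other library, and the 3 treated descending libraries were the highest of the 12. The rise was 2.12-fold in ascending (log2 fold change 1.09, SE 0.09, edgeR adjusted p = 1.26e-08) and 8.25-fold in descending fibroblasts (3.04, SE 0.63, adjusted p = 0.0411). Without descending control replicate 3 the rise in descending fibroblasts was 6.04-fold, with a smaller error (2.60, SE 0.05, adjusted p = 5.08e-26).

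*Igfbp7* (chr5:77349240-77408041), which encodes a low-affinity IGF binder of the extracellular matrix, was the most abundant member and moved least among the binding proteins called in ascending fibroblasts. It was at 1499, 1431 and 1457 normalized CPM in ascending controls and at 1732, 1743 and 1805 with TGFβ. In descending fibroblasts it was at 1394, 1386 and 1507 in controls and at 1658, 1807 and 1721 with TGFβ. Treated and control libraries did not overlap at either site. The rise was 1.20-fold in ascending fibroblasts (log2 fold change 0.26, SE 0.03, edgeR adjusted p = 2.70e-07), and in descending fibroblasts the log2 fold change was 0.27 (SE 0.10, adjusted p = 0.183), or 0.32 without control replicate 3 (SE 0.05, adjusted p = 1.62e-06). Likewise 2.99% of its 50-base exon windows were shared, mostly with *Polr2b*, which overlaps 85 bases of its exons on the opposite strand. This sharing is the overlap itself, since the reverse complement was searched too.

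With descending control replicate 3 kept, the descending calls also rested on the number of libraries. Leaving out any of the other 5 libraries ended the calls of *Igfbp2* (descending control replicate 1 or 2, or TGFβ replicate 1, 2 or 3, edgeR adjusted p from 0.0987 to 0.158) and *Igfbp6* (0.0913 to 0.177), and leaving out a TGFβ library also ended that of *Igfbp4* (0.0700 to 0.0758). Those of *Igf1* and *Igfbp3* passed in each of these fits.

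**Figure D2:**
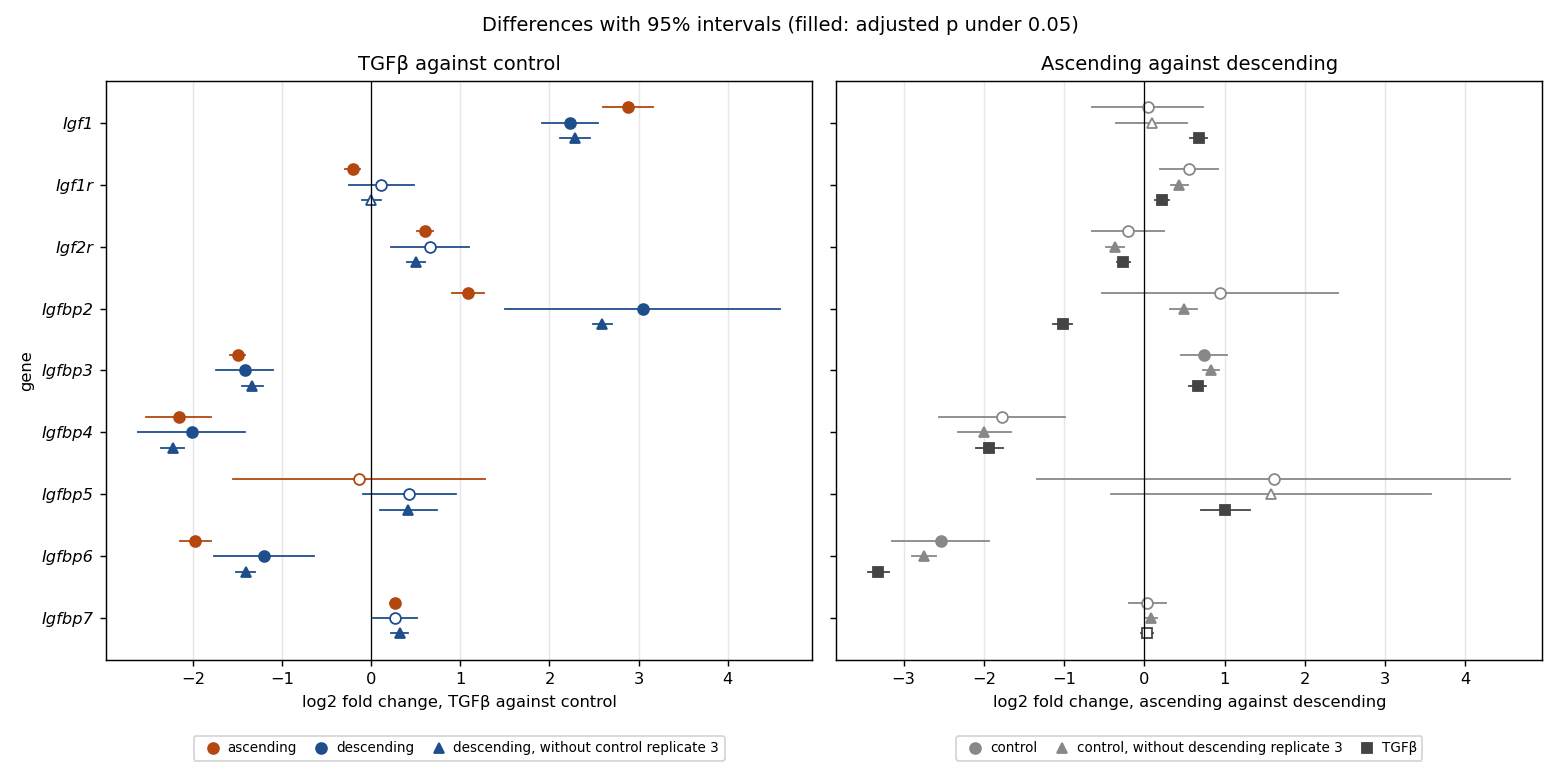
Log2 fold changes (x axis) with 95% intervals of each of the 9 genes (y axis), for TGFβ against control at each vascular site and for ascending against descending fibroblasts at each treatment. Filled symbols passed an adjusted p of 0.05, and triangles are the fits without descending control replicate 3. *Igfbp5* has the widest interval of TGFβ in ascending fibroblasts, from -1.55 to 1.28, and *Igfbp2* lies on opposite sides of 0 in the control and TGFβ site comparisons.

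*Igfbp5* (chr1:72857932-72874884), which encodes a binding protein that attaches to the matrix and is known from fibrotic tissue, depended on 1 library. In ascending controls it was at 2.74, 46.7 and 2.09 normalized CPM (63, 936 and 43 counts), and with TGFβ at 12.6, 13.1 and 20.4. The control value of 46.7 was the highest of all 12 libraries, while the other 2 ascending controls were the lowest. The log2 fold change in ascending fibroblasts was -0.14 (95% interval -1.55 to 1.28, edgeR adjusted p = 0.877) with all libraries and 2.65 (SE 0.20, adjusted p = 3.03e-12), a 6.30-fold rise, without ascending control replicate 2, where 52.3% of all genes tested were called (26.5% higher, 25.8% lower). In descending fibroblasts *Igfbp5* was at 5.72, 5.77 and 5.45 in controls and at 7.24, 6.50 and 9.12 with TGFβ. The treated libraries lay above the controls, and the log2 fold change of 0.43 (SE 0.21, adjusted p = 0.297) passed without descending control replicate 3 (0.42, SE 0.16, adjusted p = 0.0260).

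Ascending control replicate 2 was the library with the most macrophage transcripts. There *Lyz2* stood at 291 normalized CPM, against 38.8 and 42.4 in the other ascending controls, *Adgre1* at 12.5, against 2.00 and 2.04, and *Cd68* at 17.8, against 3.61 and 3.65. Among the 9 genes, *Igf1*, *Igf1r*, *Igf2r*, *Igfbp3*, *Igfbp4*, *Igfbp5* and *Igfbp6* were higher in it than in both other ascending controls, and *Igfbp2* and *Igfbp7* were lower. Some differed little, such as *Igf1r* at 244 against 222 and 237. The share of all genes highest there was not counted. Of other markers, 7 of 8 fibroblast, 4 of 6 endothelial, 3 of 4 Schwann cell, 3 of 6 smooth muscle and 0 of 4 mesothelial ones were highest in it among ascending controls. The part of the macrophage transcripts in the values of the 9 genes was not tested. The marker sum was 14.0 to 27.0 in descending TGFβ libraries and 25.5 to 47.2 in descending controls, and *Igfbp5* was lowest in the 2 ascending controls with sums of 54.4 and 57.7.

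**Figure D3:**
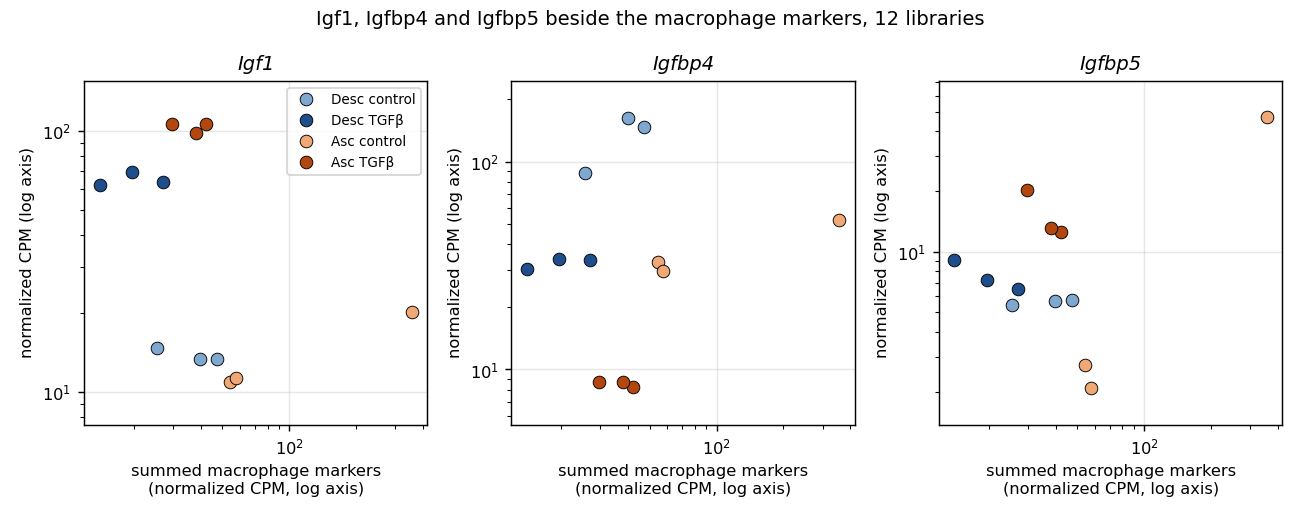
Normalized CPM of *Igf1*, *Igfbp4* and *Igfbp5* (y axis, log) against the summed normalized CPM of 6 macrophage markers (x axis, log), with 1 point for each of the 12 libraries. Ascending control replicate 2, at 357 on the x axis, lies apart from the other 11 libraries and holds the highest *Igfbp5*.

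Between untreated cultures, ascending fibroblasts had more *Igfbp3* and less *Igfbp6* than descending fibroblasts. These were the 2 members called of 9, against 2.65% of the 14090 genes tested (1.19% higher, 1.47% lower in ascending). *Igfbp6* was 5.81-fold lower in ascending controls (log2 fold change -2.54, SE 0.25, edgeR adjusted p = 0.00857) and *Igfbp3* 1.68-fold higher (0.75, SE 0.12, adjusted p = 0.0356). *Igfbp4*, whose control ranges did not overlap, missed the threshold at -1.78 (SE 0.32, adjusted p = 0.0541). With no filter on low counts *Igfbp3* missed it (edgeR adjusted p = 0.0597) and *Igfbp4* passed (0.0348). For *Igf1* the log2 difference was 0.039 (95% interval -0.65 to 0.73) and for *Igfbp7* 0.037 (-0.20 to 0.27), neither of which passed.

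The untreated site comparison depended on which libraries entered it. Without descending control replicate 3, 7 members were called, 4 higher and 3 lower in ascending fibroblasts, against 31.6% of genes tested (16.4% higher, 15.2% lower). The added calls were *Igf1r* at 0.43 (SE 0.05), *Igf2r* at -0.37 (SE 0.05), *Igfbp2* at 0.49 (SE 0.08), *Igfbp4* at -1.997 (SE 0.15) and *Igfbp7* at 0.086 (SE 0.03), with edgeR adjusted p from 2.42e-07 to 0.0455. With descending control replicate 3 kept, leaving out descending control replicate 2 or any ascending control ended both calls (adjusted p from 0.0542 to 0.0967 for *Igfbp6* and from 0.167 to 0.244 for *Igfbp3*), and leaving out descending control replicate 1 ended that of *Igfbp3* (0.140). Without ascending control replicate 2 alone, 0 members were called by edgeR (5 at an unadjusted p under 0.05), against 0.295% of genes (0.144% higher, 0.151% lower). *Igfbp5* turned direction, from 1.61 (SE 1.21, adjusted p = 0.572) with all libraries to -1.23 (SE 0.21, adjusted p = 4.89e-05) without ascending control replicate 2 and descending control replicate 3, where 8 members, 4 in each direction, and 30.8% of all genes were called (15.6% higher, 15.2% lower).

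With TGFβ, the vascular sites differed in 8 of the 9 genes, 4 higher and 4 lower in ascending fibroblasts, against 36.3% of the 13678 genes tested (18.1% higher, 18.2% lower). *Igf1* was 1.60-fold higher in ascending fibroblasts (log2 fold change 0.68, SE 0.05, edgeR adjusted p = 4.57e-12), *Igfbp5* 2.01-fold (1.01, SE 0.15), *Igfbp3* 1.58-fold (0.66, SE 0.05) and *Igf1r* 1.17-fold (0.22, SE 0.04). *Igfbp6* was 9.96-fold lower (-3.32, SE 0.06, adjusted p = 5.52e-26), *Igfbp4* 3.82-fold lower (-1.93, SE 0.08), *Igfbp2* 2.03-fold lower (-1.02, SE 0.06) and *Igf2r* 1.20-fold lower (-0.26, SE 0.04). *Igfbp7* did not pass, with a difference of 0.028 and a 95% interval from -0.045 to 0.10. These 8 calls held when any of the 6 libraries was left out. In a joint fit of all 12 libraries those of *Igf1*, *Igf1r*, *Igf2r*, *Igfbp2* and *Igfbp5* did not pass (edgeR adjusted p from 0.0712 to 0.827). *Igfbp2* was higher in ascending than in every descending library among controls, and lower in ascending than in every descending library with TGFβ. Markers of other cell types differed between the sites as well. The sum of 3 adipocyte markers was 22.2 to 28.6 normalized CPM in descending and 0.912 to 4.94 in ascending controls, and 9.74 to 18.3 against 0.0473 to 0.574 with TGFβ, where 3 of 3 were lower in ascending fibroblasts. The sum of 4 mesothelial markers was 6.89 to 13.0 in descending and 32.9 to 42.7 in ascending controls. Most of the ascending sum was *Upk3b*, at 29.0 to 37.0 in ascending and 0 to 1.60 in descending controls. *Krt19* went the other way, at 3.41 to 4.17 in ascending and 6.89 to 11.8 in descending controls, and *Wt1* was at 0 in every control. With TGFβ *Upk3b* was called higher and *Krt19* lower in ascending fibroblasts, and between controls 1 of 2 mesothelial markers was called higher (2 higher and 1 lower of 3 without descending control replicate 3). With TGFβ, 3 of 8 fibroblast markers were higher and 5 lower in ascending fibroblasts, 4 of 5 smooth muscle markers and 2 of 2 endothelial markers were lower, while 3 of 6 macrophage markers and 2 of 3 Schwann cell markers were higher. Between controls, 1 of 3 Schwann cell markers was called higher (*Sox10*), 1 of 3 adipocyte markers lower (*Plin1*), and of 8 fibroblast markers *Col3a1* higher and *Pdgfra* lower in ascending fibroblasts. Without descending control replicate 3 these counts were 2 of 3, 3 of 3, and 2 higher and 5 lower of 8, and 4 of 6 macrophage markers were higher. In that fit 2 of 6 smooth muscle markers were higher and 3 lower. The part of these markers in the site differences was not tested.

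Whether the change with TGFβ differed between sites was tested as an interaction over the 12 libraries, where a positive value is a more positive change in ascending fibroblasts. None of the 9 genes was called by edgeR's quasi-likelihood test (0, and 3 at an unadjusted p under 0.05, and 0 with DESeq2, 4 unadjusted), against 0.806% of 14637 genes tested (0.321% higher, 0.485% lower). The 3 were *Igf1* at 0.64 (95% interval 0.015 to 1.26), *Igfbp2* at -1.95 (-3.39 to -0.52) and *Igfbp6* at -0.78 (-1.36 to -0.19). Among the others, *Igfbp3* was at -0.083 (-0.35 to 0.19), *Igfbp7* at -0.0075 (-0.22 to 0.20) and *Igf2r* at -0.055 (-0.48 to 0.37). *Igf1r* was at -0.33 (-0.67 to 0.017), *Igfbp4* at -0.15 (-0.91 to 0.61) and *Igfbp5*, with the widest interval, at -0.59 (-3.43 to 2.25). Without descending control replicate 3, 4 members were called, against 13.5% of genes (6.07% higher, 7.40% lower). These were *Igf1* at 0.60 (SE 0.19, adjusted p = 0.0357), *Igf1r* at -0.20 (SE 0.06, adjusted p = 0.0369), *Igfbp2* at -1.50 (SE 0.11, adjusted p = 1.03e-09) and *Igfbp6* at -0.56 (SE 0.10, adjusted p = 0.000384). In that fit 2 of 8 fibroblast markers were called higher and 4 lower, and 1 of 6 smooth muscle markers higher and 2 lower. Of 3 endothelial and 3 adipocyte markers 1 each was lower, and 0 of 6 macrophage markers were called. The part of these markers was not tested. Without ascending control replicate 2 the 2 members called, against 0.313% of genes (0.133% higher, 0.180% lower), were *Igf1* at 0.98 (adjusted p = 0.0276) and *Igfbp5* at 2.23 (adjusted p = 0.0417). Without both libraries, *Igf1* (0.94), *Igfbp2* (-1.59), *Igfbp4* (0.36), *Igfbp5* (2.24) and *Igfbp6* (-0.48) were called, against 13.3% of genes (6.09% higher, 7.16% lower).

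To compare the genes with each other, levels were divided by exon length. *Igfbp7* led in every group, with group means from 1182 to 1456 normalized CPM per kilobase. *Igfbp2* came next in 3 groups, at 187 ± 26.7 (SD, n = 3) in ascending TGFβ, 87.7 ± 11.1 in ascending control and 380.4 ± 6.73 in descending TGFβ. In descending controls the second place was held by *Igfbp6*, at 302 ± 86.7, followed by *Igfbp2* and *Igfbp3*, whose ranges overlapped. Without descending control replicate 3 these 3 means were 350.0, 63.1 and 42.3, and the ranges of *Igfbp2* and *Igfbp3* did not overlap. *Igf2r* stood above *Igf1r* in every group, for example at 42.3 ± 1.17 against 12.1 ± 0.316 in ascending TGFβ. *Igf1* was last in ascending controls, at 1.43 ± 0.534, where its range overlapped that of *Igfbp5* and that of *Igfbp5* overlapped *Igfbp4*. Without ascending control replicate 2 *Igfbp5* was last, at 0.402, below *Igf1* at 1.12. With TGFβ *Igf1* reached 10.5 ± 0.467 in ascending fibroblasts, above *Igfbp5* and *Igfbp4*, and 6.59 ± 0.421 in descending fibroblasts, where its range overlapped that of *Igfbp4*.

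As a share of the summed level per kilobase of the 6 binding protein transcripts, *Igfbp7* made up 84.3% ± 0.549 (SD, n = 3) in ascending controls, 86.3% ± 1.62 in ascending TGFβ, 73.8% ± 6.55 in descending controls and 72.7% ± 0.910 in descending TGFβ. The descending control shares of *Igfbp7* were 69.2%, 70.9% and 81.3% in replicates 1, 2 and 3. Those of replicates 1 and 2 lay below every treated descending library (71.8% to 73.6%), and that of replicate 3 lay above all 3. The second place changed hands in descending fibroblasts. There *Igfbp6* went from 18.7% ± 4.71 in controls to 6.68% ± 0.363 with TGFβ and *Igfbp2* from 2.81% ± 1.79 to 19.3% ± 0.708. Descending control replicate 3 held the lowest share of both in its group, at 13.3% and 0.755%. In ascending fibroblasts *Igfbp2* went from 6.10% ± 0.652 to 11.1% ± 1.61, *Igfbp3* from 5.20% ± 0.221 to 1.57% ± 0.0637 and *Igfbp6* from 3.60% ± 0.404 to 0.778% ± 0.0916. The summed level went from 1435 ± 29.0 to 1687 ± 8.45 per kilobase in ascending and from 1605 ± 67.1 to 1967 ± 60.4 in descending fibroblasts. *Igf1*, relative to that sum, went from 0.100% ± 0.0387 to 0.623% ± 0.0250 in ascending and from 0.0873% ± 0.00863 to 0.335% ± 0.0298 in descending fibroblasts. The shares depended on the division by exon length. Of the alternative share values, 21 moved by the SD of their group or more and 75 did not. Leaving out a library of a group cannot move a mean of 3 that far, so the 21 were shares not divided by exon length. These are shares of transcripts, and protein was not measured.

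**Figure D4:**
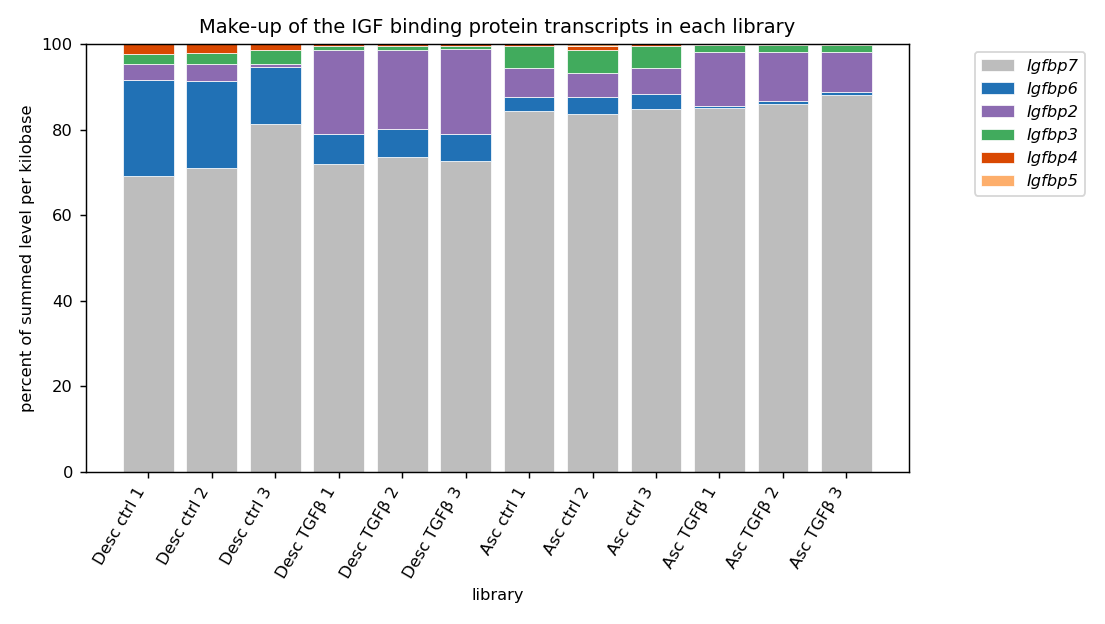
Percent of the summed level per kilobase (y axis) that each binding protein transcript held in each of the 12 libraries (x axis). The *Igfbp2* segment lies between 18.5% and 19.8% in descending TGFβ libraries and at 3.95% or below in descending controls.

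Beyond the 9 genes, 56 genes of IGF signalling in 7 lists were examined. In ascending fibroblasts 45 could be tested for TGFβ, of which 17 rose and 17 fell, with a median log2 fold change of 0.038, and without ascending control replicate 2 it was 16 and 16 of 46. In descending fibroblasts 1 of 47 rose and 6 fell, and without control replicate 3 it was 14 and 17 of 48. These shares stand beside the backgrounds of 55.8%, 52.3%, 8.07% and 52.9%, in that order.

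Among PI3K-AKT-mTOR genes, 8 of 22 rose and 7 fell in ascending fibroblasts (7 and 7 without control replicate 2), and 1 rose and 1 fell in descending fibroblasts (8 and 7 without control replicate 3). *Pik3cb*, a catalytic subunit of PI3K, rose by 1.63 on the log2 scale (SE 0.06) in ascending and by 1.47 (SE 0.27, edgeR adjusted p = 0.0282) in descending fibroblasts. *Pik3r1*, the regulatory subunit p85α and its splice forms, fell by 1.10 (SE 0.07) and 2.51 (SE 0.49, adjusted p = 0.0330). Descending control replicate 3 held the highest *Pik3r1* of its group, at 280.1 normalized CPM, and without it the fall was by 1.78 (SE 0.07). In ascending fibroblasts *Pik3cd* rose by 0.73, *Rheb*, the GTPase that activates mTORC1, by 0.70 and *Rictor*, a subunit of mTORC2, by 0.39. *Foxo4* fell by 0.74, *Akt2* by 0.40 and *Foxo3* by 0.34.

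Of 8 adaptors, 4 rose and 4 fell in ascending fibroblasts, and 1 fell in descending fibroblasts (1 rose and 3 fell without control replicate 3). The insulin receptor substrates *Irs1* and *Irs2* rose by 0.35 (SE 0.06) and 0.72 (SE 0.09) in ascending fibroblasts, while *Grb14*, an inhibitor of insulin receptor signalling, fell by 0.42 (SE 0.05) in ascending and by 0.76 (SE 0.11, edgeR adjusted p = 0.0155) in descending fibroblasts. The adaptors *Sos1* and *Grb10* rose by 0.21 and 0.13 and *Gab1*, *Shc1* and *Grb2* fell by 0.45, 0.42 and 0.22 in ascending fibroblasts. Of 4 other receptors tested, 3 rose in ascending and none passed in descending fibroblasts (0 by edgeR, 3 without control replicate 3). The largest of these in ascending fibroblasts was *Insr*, the insulin receptor, at 0.29 (SE 0.05), followed by *M6pr* at 0.23 and *Lrp1* at 0.16.

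Of the proteases that cut binding proteins and their inhibitors, 1 rose and 4 fell of 5 tested in ascending fibroblasts (1 and 3 of 6 without control replicate 2), and 0 rose and 2 fell of 7 in descending fibroblasts (1 and 3 without control replicate 3). *Adam12*, a metalloprotease known to cut IGFBP3 and IGFBP5, was the 1 that rose in ascending fibroblasts, from 9.74 ± 0.826 to 36.8 ± 1.75 normalized CPM (SD, n = 3) (log2 fold change 1.91, SE 0.07, edgeR adjusted p = 1.25e-12). It was at 35.9 ± 15.7 and 46.1 ± 3.76 in descending fibroblasts, a change of 0.35 (SE 0.31) that did not pass with all controls and of 0.78 (SE 0.08) that did without control replicate 3. *Adam12* was also the 1 gene of its list called between untreated sites, lower in ascending fibroblasts by 1.88 on the log2 scale (adjusted p = 0.0483), while 3 were higher and 3 lower of 7 without descending control replicate 3. The pappalysin inhibitor *Stc1* was called lower with TGFβ in descending fibroblasts (adjusted p = 0.0130), from 3.62 ± 2.07 to 0.136 ± 0.0596, the latter near the floor. *Pappa*, the protease PAPP-A that cuts IGFBP4, fell by 0.15 (SE 0.05) in ascending fibroblasts, which did not pass without control replicate 2 (-0.093, edgeR adjusted p = 0.0564), and was at -0.031 (SE 0.12) in descending fibroblasts. The serine protease *Htra1* fell by 0.25 in ascending and 0.65 in descending fibroblasts, and *Stc2* and *Adam9* fell by 0.52 and 0.18 in ascending fibroblasts.

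In the growth hormone axis, which drives *Igf1* in liver, 1 of 5 genes rose and 2 fell in ascending fibroblasts, and 0 rose and 2 fell in descending fibroblasts (1 and 3 without control replicate 3). *Socs2*, a feedback inhibitor of growth hormone signalling, fell from 23.0 ± 1.28 to 7.75 ± 1.15 normalized CPM (SD, n = 3) in ascending fibroblasts (log2 fold change -1.58, SE 0.10, edgeR adjusted p = 6.56e-10) and by 1.43 (SE 0.31, adjusted p = 0.0479) in descending fibroblasts. *Stat5a* fell by 0.61 and 1.04, respectively. The growth hormone receptor *Ghr* was higher in ascending than in descending fibroblasts, by 0.73 (SE 0.11, adjusted p = 0.0283) in controls and by 0.62 (SE 0.03, adjusted p = 8.36e-15) with TGFβ. It rose with TGFβ by 0.31 (SE 0.03) in ascending fibroblasts.

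**Figure D5:**
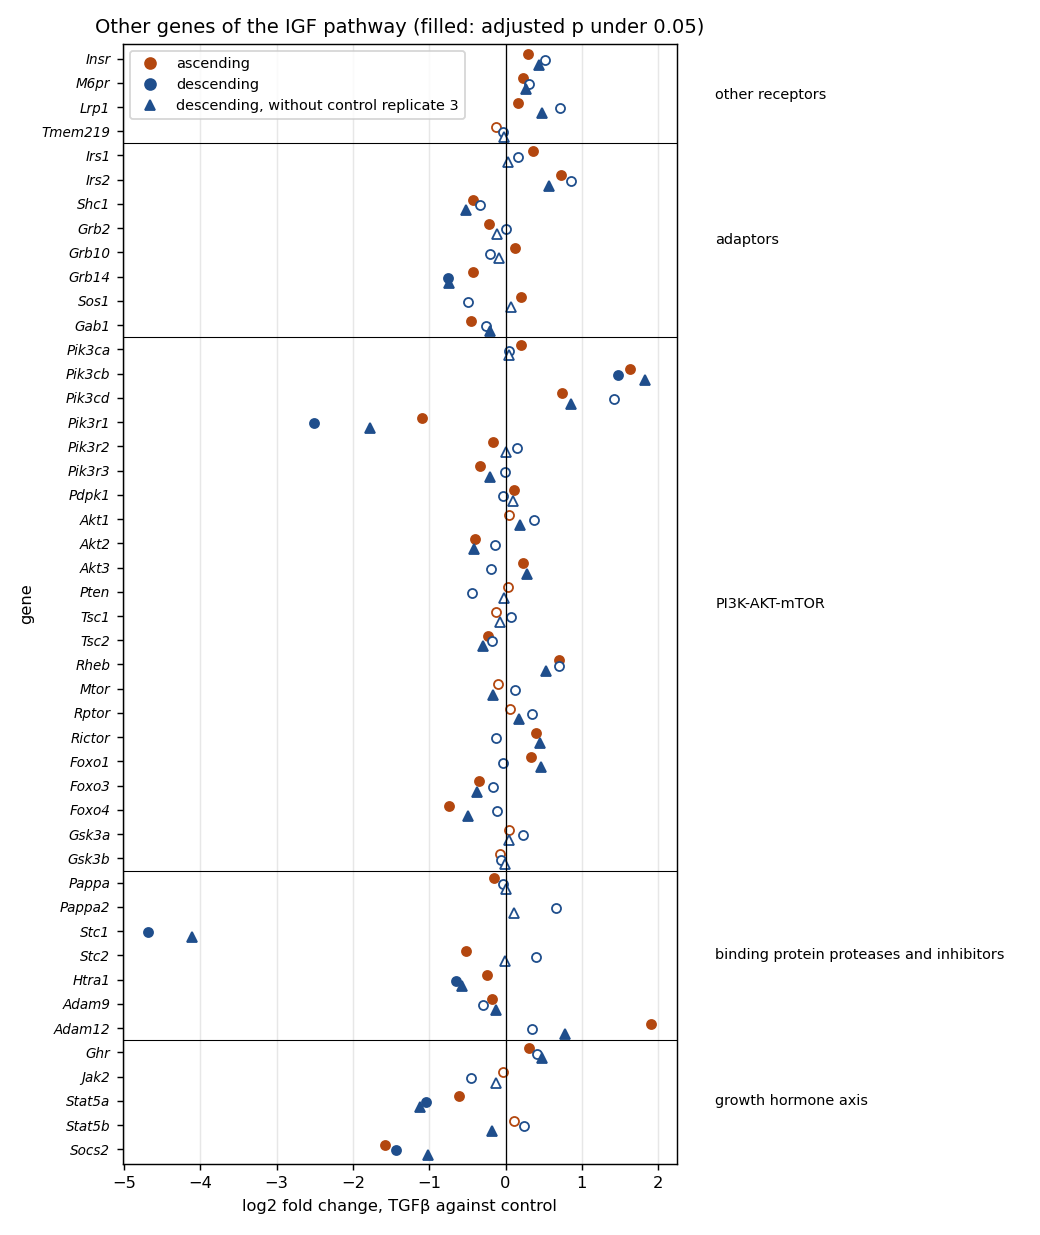
Log2 fold changes with TGFβ against control (x axis) of the other genes of the IGF pathway that could be tested (y axis, by list), in ascending fibroblasts and in descending fibroblasts with and without control replicate 3. Filled symbols passed an adjusted p of 0.05. *Adam12* at 1.91 and *Pik3cb* at 1.63 lie farthest right in ascending fibroblasts, and *Socs2* at -1.58 farthest left.

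For each member, the gene whose log2 CPM was most like it was sought among 8758 genes over the 11 libraries other than descending control replicate 3. Pearson's r was 0.995 between *Igf1* and *Ostc*, a subunit of the oligosaccharyltransferase complex, and 0.994 between *Igfbp2* and *Nob1*. It was 0.998 both for *Igfbp3* with *Sntb2* and for *Igfbp6* with *Emilin2*, and 0.990 for *Igfbp4* with *Sned1*. The receptors *Igf1r* and *Igf2r* were most like *Plekhg5* (0.977) and *Nbea* (0.993), and *Igfbp7* was most like *Grk5* (0.985). *Igfbp5* had the lowest best match, *Chchd5* at 0.891. These values describe patterns over 4 groups of libraries that share their treatment and site, and no test was attached to them.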

How the data were processed

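Bulk RNA of 12 cultures was sequenced, 3 per group, all of batch 1 per the labels. The authors deposited raw read counts per gene symbol, 1 column per library. The submitters' processing notes name FastQC, STAR, featureCounts, DESeq2 and mm10. The strand setting and the handling of reads that match several genes are not given in the sources used here.

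Counts were tested in R 4.3.3 with edgeR 4.0.16 (TMM, filterByExpr with a minimum count of 10 and total of 15, quasi-likelihood F-test, two-sided), with Benjamini-Hochberg adjustment over all genes tested. Each comparison used its own libraries, and the interaction all 12. The SE is the log2 fold change divided by the square root of F. Intervals are 95%. Exon lengths came from GENCODE vM21 (GRCm38, the same assembly as mm10), which held 98.9% of the symbols, and promoters from RefSeq (all 9 genes matched). Log2 CPM used a prior count of 2. The gene most like a member was the one with the highest r among genes with a mean of at least 10 normalized CPM. Alternatives were DESeq2 1.42.0, its size factors in edgeR, no filter, limma 3.58.1 voom with sample quality weights, the replicate number as a block, one fit of all 12 libraries, and leave-one-out fits. The edgeR, DESeq2 and voom fits, at their default settings, were checked on simulated counts in which 200 genes were changed. The simulation used a common dispersion for all genes, taken from the libraries other than descending control replicate 3. The other alternatives were not simulated. All 9 members are named in every comparison. Pathway genes are named for TGFβ at each site where they passed, at most 4 per list and direction by adjusted p, and those named for other comparisons were chosen after their values were seen. Members and lists were chosen with earlier results of these data known. Figures used Python 3.11.15 with matplotlib 3.10.9. The study's single-cell data were not analysed here.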

Additional observations from a re-analysis of the deposited data

How the results depend on the processing

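The calls of ascending TGFβ against control and of the sites under TGFβ held for 8 members or more in every fit with the libraries of the comparison, by edgeR, DESeq2 and limma. With all 12 libraries in one fit, which includes descending control replicate 3, they were 6 and 3, and the genes called 2338 and 1106. The calls lost in that fit were *Igf1r* and *Igfbp2* for ascending TGFβ, and *Igf1*, *Igf1r*, *Igf2r*, *Igfbp2* and *Igfbp5* for the sites under TGFβ. Without each library in turn, 7146 to 7427 and 4340 to 4656 genes were called in these comparisons.

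For TGFβ in descending fibroblasts (1115 genes, 5 members), DESeq2 called 2266 genes, voom with sample quality weights 7335 genes and 8 members, and the fit of 12 libraries 3570 genes, and the leave-one-out fits 213 to 7576 genes and 2 to 8 members. For the sites in control (374 genes, 2 members), DESeq2 called 1034 genes and 4 members, voom 4392 and 6, the fit of 12 libraries 1545 and 4, leaving out descending control replicate 3 and ascending control replicate 2, chosen after seeing the data, 4453 and 8, and leaving out each library 33 to 4631 genes and 0 to 7 members. For the interaction (118 genes, 0 members), the values were 418 genes with DESeq2, 56 with no filter, 1979 and 3 members with voom, 1975 and 5 without both libraries, and 25 to 2022 genes and 0 to 4 members without each library. The cause of these shifts was not tested, except that the fits without descending control replicate 3 gave the highest counts of genes in these 3 comparisons among the fits that left out 1 library.

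Same-numbered libraries of different groups deviated together with r of -0.026 to 0.088, so the numbers were not taken as pairs, and 8 of 12 libraries correlated best with their own number. With the replicate block, TGFβ in descending fibroblasts gave 95 genes and 1 member, the sites in control 0 genes and 0 members (1235 genes and 4 members at an unadjusted p under 0.05, by edgeR) and the interaction 50 genes. The block also turned the direction of *Igfbp5* with TGFβ in ascending fibroblasts (0.49), of *Igf1* between control sites (-0.022) and of *Igfbp5* in the interaction (0.0091).

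Other directions turned only for values that had not passed in the fit with all libraries. With voom these were *Igfbp5* with TGFβ in ascending fibroblasts (1.48), *Igf1r* with TGFβ in descending fibroblasts (-0.013), *Igf1* (-0.023) and *Igfbp5* (-0.11) between control sites, and *Igf2r* (0.12), *Igfbp4* (0.17) and *Igfbp5* (1.12) in the interaction. Without both libraries, they were *Igf1* (-0.26) and *Igfbp5* (-1.23) between control sites, and *Igf2r* (0.17), *Igfbp4* (0.36) and *Igfbp5* (2.24) in the interaction. Without each library in turn, *Igfbp5* ranged from -0.67 to 2.65 with TGFβ in ascending fibroblasts, *Igf1r* from -0.0027 to 0.20 with TGFβ in descending fibroblasts, *Igfbp7* from -0.0035 to 0.059 between TGFβ-treated sites, and *Igf1* from -0.31 to 0.20 and *Igfbp5* from -1.21 to 2.14 between control sites. In the interaction *Igf2r* ranged from -0.15 to 0.11, *Igfbp4* from -0.32 to 0.14, *Igfbp5* from -1.12 to 2.23 and *Igfbp7* from -0.051 to 0.021.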
